A study of Mus musculus with 75 samples.

Results

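Cell proliferation was followed through 10 genes of the cell cycle: Mki67, Top2a, Ccnb1, Ccna2, Cdk1, Mcm2, Mcm5, Pcna, Birc5 and Rrm2. They were chosen by symbol, as the rows that carry these names in both deposited count tables, which hold 21051 and 21076 gene symbols. All 10 were present in both tables, and all 10 passed the filter on low counts in each of the 3 experiments. The rule uses the symbols alone. The genes were studied in RNA-seq libraries labelled as enteric glial cells, the glia of the gut's own nervous system, of mice.

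A dividing cell copies its DNA in S phase and separates the copies in mitosis, after a second gap called G2, and many of the genes it needs are transcribed only in those phases. S phase genes are largely under the control of E2F transcription factors. Genes of G2 and mitosis are induced later, through promoters that often carry CCAAT boxes bound by NF-Y and a cell cycle homology region (CHR). In the adult gut, crypt epithelium and activated lymphocytes divide all the time, whereas enteric glia are largely quiescent in the healthy animal. Members were therefore read in 2 sets, 4 genes of S phase and replication (Mcm2, Mcm5, Pcna and Rrm2) and 6 genes of G2 and mitosis (Ccna2, Cdk1, Ccnb1, Top2a, Birc5 and Mki67).

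The series holds 75 libraries in 16 groups and 3 experiments, each group being a combination of gut region, layer, genotype and treatment. All mice carried the same transgenic eGFP reporter, a green fluorescent protein expressed in glia, so no group lacks the transgene. In the first experiment, untreated adult reporter mice of both sexes gave 6 libraries of the small intestinal myenteric plexus (the nerve layer within the muscle wall), 6 of the small intestinal submucosal plexus (the layer beneath the mucosa), 5 of the colonic myenteric plexus and 5 of the colonic submucosal plexus. In the second, reporter mice received an intraperitoneal injection of LPS (lipopolysaccharide, a bacterial endotoxin) at 2 mg/kg or of PBS (phosphate-buffered saline, the vehicle), and the myenteric plexus of each region was taken 2 h later, with 4 libraries per group. In the third, Gpr37WT reporter mice and Gpr37-/- reporter mice, which lack the receptor Gpr37, received LPS or PBS 24 h before the myenteric plexus was taken. These groups were wild type PBS (6 small intestine, 4 colon), wild type LPS (4 and 5), knockout PBS (4 and 5) and knockout LPS (5 and 4). No submucosal library was treated, so LPS and genotype were tested in the myenteric plexus only. The labels give no sort or gate for the cells, and no age of the treated mice.

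Libraries held between 2547296 and 9002546 counts in the untreated experiment, between 1990744 and 7883251 at 2 h and between 2882539 and 33283346 at 24 h. A floor of 3 counts in a library, the limit that a count of 0 allows, corresponds to 0.329 to 1.11, 0.359 to 1.46 and 0.0933 to 1.09 CPM, the count scaled by library size, in the 3 experiments, and covers counting error only. The label of the knockout was checked by Gpr37 itself, which had a median of 6.50 CPM (0 to 17.4) in 19 wild type libraries and 0 CPM (0 to 0.802) in 18 knockout libraries. At 3 counts or fewer stood 17 of the 18 knockout libraries and 4 of the 19 wild type ones. Glial markers (7 genes, among them Sox10, S100b and Gfap) summed to 1454 to 2283 CPM in the untreated small intestinal myenteric plexus and to 947 to 1965 CPM in the colonic one. They summed to 71.7 to 354 CPM in the small intestinal submucosal plexus and to 131 to 696 CPM in the colonic one, a smaller share of glial RNA under the same label. Of the 64 myenteric libraries 4, all of the colon, stood apart with over 2000 CPM of 7 epithelial markers (Epcam, Krt8, Krt18, Krt19, Cdh1, Vil1, Cldn7). They were replicate 5 of the untreated group (2650 CPM), replicates 3 and 5 of the wild type LPS group at 24 h (6355 and 9798 CPM) and replicate 4 of the knockout PBS group at 24 h (8120 CPM). The other 60 myenteric libraries had 3.54 to 1468 CPM, and results that rest on those 4 libraries are given with and without them.

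In the untreated small intestine all 10 proliferation genes rose in the submucosal plexus relative to the myenteric plexus. Adjusted p-values are Benjamini-Hochberg values over all genes tested, from edgeR's quasi-likelihood test, and a gene is called when its adjusted p is under 0.05. The background was high: 43.5% of the 14090 genes tested were called in this comparison, 22.3% of them as higher in the submucosal plexus. The log2 fold changes of the 10 genes had a median of 3.43, against 0.06 for all genes tested. In 10 of 10 genes the 6 submucosal libraries lay above all 6 myenteric ones, where 13.4% of all genes tested were higher without overlap. The calls were kept, 10 of 10, when any 1 of the 12 libraries was left out.

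Among the replication genes, Pcna, the sliding clamp that holds DNA polymerase on its template (chromosome 2, 132249162 to 132253314, minus strand, GRCm38), was the member whose fold change had the smallest standard error. It had 25.4 to 34.2 CPM (median 29.9) in the 6 small intestinal myenteric libraries and 59.0 to 90.8 CPM (median 81.4) in the 6 submucosal ones, a log2 fold change of 1.36 ± 0.22 (SE, adjusted p = 5.94e-05). Pcna also serves DNA repair and was read in every library, so its myenteric level was never near the floor. Mcm5, a subunit of the MCM2-7 replicative helicase (chromosome 8, 75109569 to 75128439, plus strand), had 4.41 to 17.6 CPM (median 9.79) in the myenteric and 44.4 to 118 CPM (median 90.2) in the submucosal plexus (log2 fold change 2.98 ± 0.70, adjusted p = 0.00164). Mcm2, another subunit of that helicase (chromosome 6, 88883474 to 88898780, minus strand), had 2.93 to 39.1 CPM (median 16.4) and 40.3 to 104 CPM (median 59.7), so its groups nearly met (1.96 ± 0.63, adjusted p = 0.0149). Rrm2, the small subunit of ribonucleotide reductase, which makes deoxynucleotides (chromosome 12, 24708241 to 24714146, plus strand), had 0 to 9.59 CPM (median 7.65) and 54.6 to 73.8 CPM (median 61.3), with a log2 fold change of 3.38 ± 0.94 (adjusted p = 0.00588). The median log2 fold change of these 4 genes was 2.47.

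The genes of G2 and mitosis had a median log2 fold change of 4.51 in the same comparison. Ccna2, or cyclin A2, which acts in S phase and G2 (chromosome 3, 36564865 to 36572150, minus strand), was read in all libraries, at 8.48 to 17.6 CPM (median 15.1) in the myenteric and 72.7 to 114 CPM (median 96.0) in the submucosal plexus (2.73 ± 0.63, adjusted p = 0.00145). Its values are uncertain in one respect, because 12.5% of its exonic bases overlap Exosc9 and the use of strand in counting is not given in the sources used here. Cdk1, the kinase that drives entry into mitosis (chromosome 10, 69335146 to 69352938, minus strand), had 0 to 9.56 CPM (median 1.08) and 28.8 to 53.2 CPM (median 44.5), a log2 fold change of 4.15 ± 1.11 (adjusted p = 0.00453). Its partner Ccnb1, cyclin B1 (chromosome 13, 100778650 to 100786570, minus strand), was at 0 in 4 of the 6 myenteric libraries and reached 1.82 CPM, against 7.91 to 26.3 CPM (median 16.7) in the submucosal ones (adjusted p = 0.00345). Its log2 fold change of 5.43 ± 1.40 is a fitted value that depends on the prior count, since its myenteric mean (0.344 CPM) was under the floor.

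Top2a, the topoisomerase that untangles sister chromatids (chromosome 11, 98992943 to 99024189, minus strand), had 0 to 15.6 CPM (median 6.37) in the myenteric and 52.9 to 111 CPM (median 94.4) in the submucosal plexus, a log2 fold change of 3.48 ± 1.07 (adjusted p = 0.0116). Birc5, or survivin, a subunit of the chromosomal passenger complex (chromosome 11, 117849251 to 117855743, plus strand), had 0 to 1.96 CPM (median 1.18) and 37.7 to 50.0 CPM (median 45.1). That is a log2 fold change of 5.41 ± 1.08 (adjusted p = 0.000414). Mki67, the proliferation antigen Ki-67 that coats mitotic chromosomes (chromosome 7, 135689784 to 135716361, minus strand), had 0 to 6.37 CPM (median 0.358) in the myenteric libraries, 4 of which were at 3 counts or fewer. In the submucosal plexus it had 29.8 to 47.5 CPM (median 42.0), a log2 fold change of 4.86 ± 1.10 (adjusted p = 0.00119). The plot of CPM in the untreated libraries shows the gap between the layers for each of the 10 genes.

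**Figure D1:**
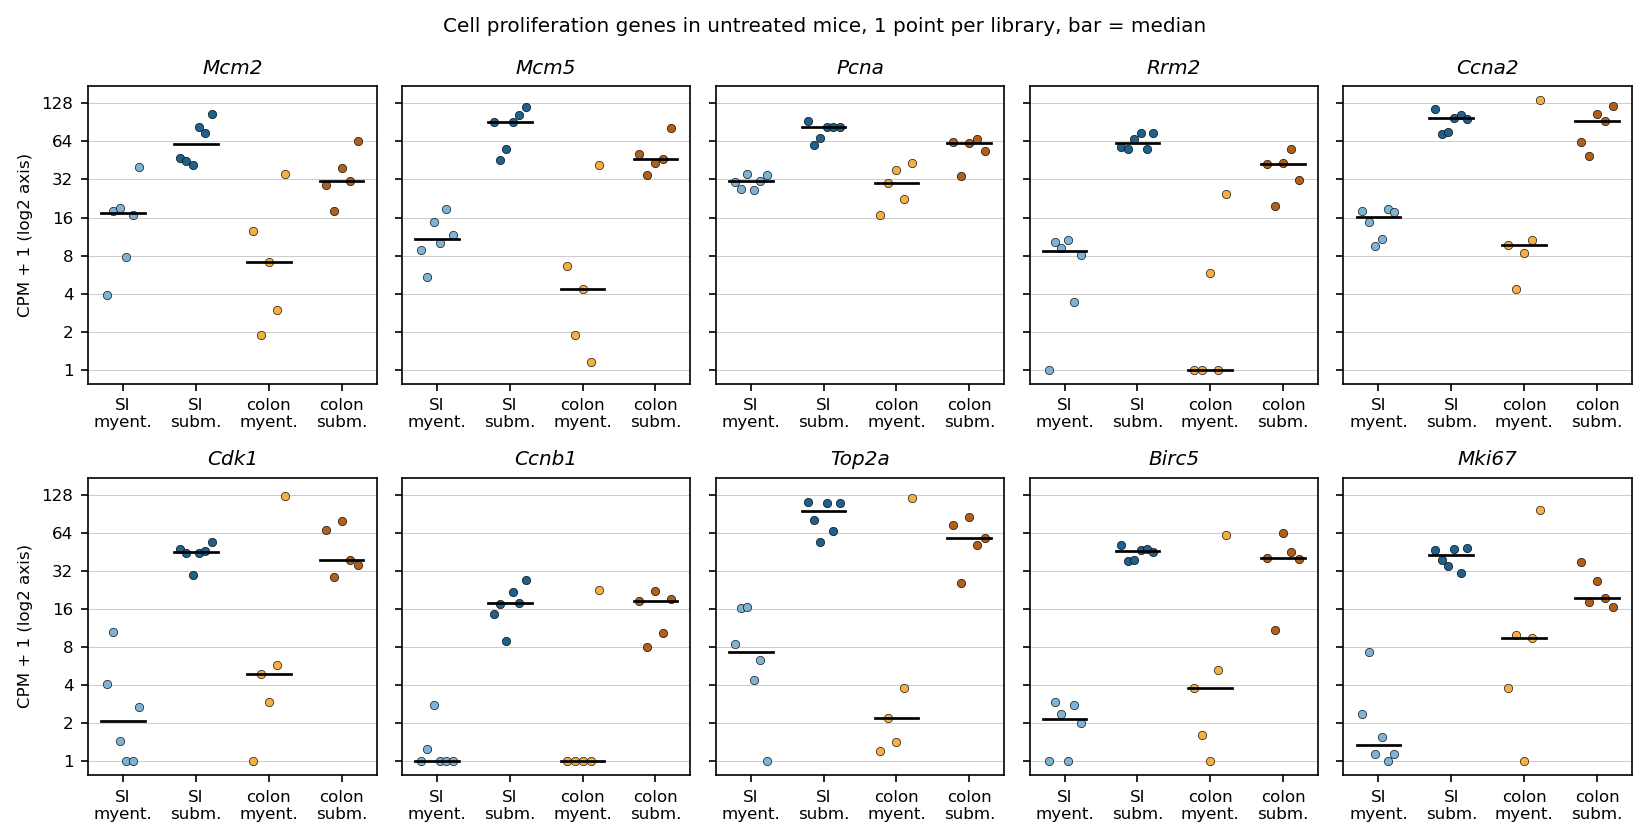
Each panel shows 1 proliferation gene in the 22 untreated libraries, as CPM + 1 on a log2 axis, with the 4 groups on the x axis, 1 point per library and a bar at the group's median. In the small intestine the submucosal points lie above all myenteric points in 10 of 10 panels, and in the colon replicate 5 of the myenteric plexus lies far above the other 4 of its group in most panels.

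Markers of other cell types moved with this difference. In the small intestine the 7 epithelial markers, 5 of 5 B cell markers, 5 of 5 T cell markers, 5 of 5 plasma cell markers and 6 of 6 macrophage markers were called higher in the submucosal plexus, and 7 of 7 glial markers were called lower. Epithelial markers summed to 29.1 to 284 CPM in the myenteric and to 1461 to 6508 CPM in the submucosal libraries, B cell markers to 0.463 to 10.4 and to 285 to 1847 CPM, and T cell markers to 0.151 to 2.82 and to 120 to 399 CPM. Pax5, a defining B cell factor, was at 0 in all 6 myenteric libraries. The mitochondrial share of counts was 11.6 to 18.8% in the myenteric and 2.84 to 9.43% in the submucosal libraries. When the mean log2 levels of the epithelial and of the lymphocyte markers were added to the fit as covariates, 0 of 10 members were called, and only 1 of 14090 genes (0.0071%) was. The estimates of 9 of 10 members then turned below 0, from -0.19 (Rrm2) to -3.27 (Ccnb1), with standard errors of 1.42 to 2.91, and that of Pcna was 0.26 ± 0.64. Since these markers do not overlap between the layers, layer and cell composition cannot be told apart here. In bulk libraries, more dividing cells and more RNA of these genes per cell cannot be told apart either.

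Genes with related roles in the cell cycle were read from lists that do not contain the members. Of 28 other S phase genes, 25 rose and 0 fell in the small intestinal submucosal plexus, with a median log2 fold change of 1.86. The 3 with the largest rise were Cdc6, which loads the helicase (4.49 ± 1.01), Mcm10, which activates it (3.83 ± 1.26), and Tk1, a thymidine kinase (3.81 ± 1.01). Of 35 other genes of G2 and mitosis, 28 rose and 1 fell, with a median of 3.64, or 3.56 with genes near 0 set at their lower bound. Ccnb2 (cyclin B2), Plk1 and Bub1 (mitotic kinases) had 3 counts or fewer in each of the 6 myenteric libraries, so their folds are lower bounds against 3 counts per library. In the submucosal plexus Ccnb2 was at least 100.3-fold higher, Plk1 at least 35.1-fold and Bub1 at least 23.5-fold. The gene that fell was Anln (log2 fold change -2.01 ± 0.42, adjusted p = 0.000592), whose product anillin organises the contractile ring and also binds actin in cells that do not divide.

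Regulators of G1 were called in both directions. Of 10 G1 cyclins and kinases, 3 rose in the small intestinal submucosal plexus and 2 fell, a share near the 43.5% of all genes called in this comparison. Those that rose were Myc, a growth factor response gene (2.89 ± 0.36), Cdk2 (1.15 ± 0.27) and Cdk4 (0.63 ± 0.15), and those that fell were the D-type cyclins Ccnd1 (-1.76 ± 0.21) and Ccnd3 (-0.92 ± 0.23). Ccnd1 averaged 585 CPM in the myenteric plexus and 173 CPM in the submucosal plexus. Of 15 cell cycle inhibitors tested, 5 rose and 5 fell, against 22.3% of all genes called as higher. The largest rises were Cdkn2b (2.24 ± 0.70, but 1.46 and not called without submucosal replicate 1), Btg2 (1.36 ± 0.32) and Rbl1 (1.32 ± 0.51, a call kept in 4 of 12 leave-one-out fits). Cdkn1a, which encodes the kinase inhibitor p21, fell by 1.70 ± 0.35, Cdkn1c by 1.62 ± 0.46 and Cdkn2c by 0.83 ± 0.24 on the log2 scale.

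The promoters of the members, which moved together in the small intestine, are shown for 3 genes. Cdk1 and Mcm5 are the members with an E2F match, and Top2a holds the most CHR and CCAAT matches. Mki67, not shown, holds more matches than Mcm5, 2 CHR and 3 CCAAT boxes. RefSeq's promoter table (GRCm38.p6) matched 9 of the 10 members, all but Ccna2. The motifs searched, on both strands in the first 250 bases of each promoter record, were E2F (TTTGGCGC, TTTCCCGC, TTTGCCGC or TTTCGCGC), CHR (TTTGAA or TTCGAA) and the CCAAT box (CCAAT). In some members those bases run past the outermost annotated start of the gene. Capitals mark matches, on either strand, so that ATTGG is a CCAAT box and TTCAAA a CHR of the other strand. The windows printed are shorter than those searched, 240, 224 and 209 bases, because they stop at the outermost start that RefSeq or GENCODE gives the gene, and they read 5′ to 3′ along its strand. Top2a is chr11:99024200-99024439 (minus strand), Cdk1 is chr10:69352939-69353162 (minus strand) and Mcm5 is chr8:75109259-75109467 (plus strand).
Top2a: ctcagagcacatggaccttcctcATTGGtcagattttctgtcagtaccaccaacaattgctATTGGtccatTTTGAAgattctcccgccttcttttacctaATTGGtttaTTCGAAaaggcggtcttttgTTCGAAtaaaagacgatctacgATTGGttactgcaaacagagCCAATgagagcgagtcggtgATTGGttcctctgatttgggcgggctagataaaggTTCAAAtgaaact
Cdk1: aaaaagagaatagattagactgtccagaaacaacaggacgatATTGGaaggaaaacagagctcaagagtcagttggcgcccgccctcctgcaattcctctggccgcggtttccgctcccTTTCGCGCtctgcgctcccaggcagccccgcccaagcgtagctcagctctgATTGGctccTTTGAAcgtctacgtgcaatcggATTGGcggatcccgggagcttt
Mcm5: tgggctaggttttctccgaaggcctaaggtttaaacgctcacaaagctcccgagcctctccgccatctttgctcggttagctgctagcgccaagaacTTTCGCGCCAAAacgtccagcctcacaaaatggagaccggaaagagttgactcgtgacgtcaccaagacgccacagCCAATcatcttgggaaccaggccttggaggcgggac
In the letters printed, the mitotic Top2a holds 4 CHR matches, 6 CCAAT boxes and no E2F match. Cdk1 holds 1 E2F match, 1 CHR and 3 CCAAT boxes, and the replication gene Mcm5 holds 2 overlapping E2F matches on opposite strands, 1 CCAAT box and no CHR. Over the full 250 bases of the 9 members, 2 held an E2F match, 4 a CHR and 8 a CCAAT box, whereas 1.86%, 17.1% and 33.8% of 32851 promoters of the same length did. The CCAAT box of Pcna lay outside the 116 bases of its record that precede the outermost annotated start. The matches did not divide by set. An E2F match was found in 1 of the 4 S phase promoters (Mcm5) and in 1 of the 5 of G2 and mitosis (Cdk1), and a CHR in 1 of 4 (Mcm2) and in 3 of 5, not in Ccnb1 or Birc5. A match is a run of letters in these windows and says nothing about binding in these cells.

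In the untreated colon 2 of 10 members, Mcm5 and Pcna, rose in the submucosal plexus, where 21.8% of all genes tested were called and 10.7% were called as higher. Pcna had 15.7, 29.0, 37.1, 21.6 and 42.4 CPM in myenteric replicates 1 to 5 and 62.1, 33.2, 61.1, 65.6 and 52.3 CPM in submucosal replicates 1, 2, 4, 5 and 6 (log2 fold change 0.91 ± 0.24, adjusted p = 0.0108). Submucosal replicate 2 lay within the myenteric range, and the call was kept in 10 of 10 leave-one-out fits. Mcm5 had 5.65, 0.907, 3.40, 0.164 and 40.3 CPM in the myenteric and 49.6, 33.6, 42.4, 45.3 and 80.8 CPM in the submucosal libraries (2.31 ± 0.75, adjusted p = 0.0307). Myenteric replicate 5 stood among the submucosal values. The Mcm5 call was lost without myenteric replicate 1, 2 or 3 or without submucosal replicate 6, with log2 fold changes of 2.16, 2.03, 2.08 and 2.07. It was also lost, as was Pcna's, when only the colon groups of this comparison entered the fit, with log2 fold changes as large (2.33 and 0.95). DESeq2 called 4 of 10, Mcm2 (1.75) and Rrm2 (2.79) beside these 2, in a fit in which it called 26.6% of all genes.

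The other 8 members had the same shape in the colon, with 4 low myenteric libraries and 1 high one. Mki67 had 2.83, 9.07, 0, 8.51 and 96.0 CPM in myenteric replicates 1 to 5, and 36.6, 17.1, 25.8, 18.7 and 15.6 CPM in the submucosal libraries, with a log2 fold change of -0.04. Top2a had 0.217, 1.21, 0.438, 2.78 and 119 CPM against 72.9, 24.9, 84.8, 50.0 and 57.7 CPM. In both genes replicate 5 exceeded all 5 submucosal libraries. Cdk1 had 0, 3.93, 1.97, 4.74 and 124 CPM against 65.8, 27.5, 78.7, 37.7 and 34.5 CPM. Ccna2 had 8.70, 3.32, 7.34, 9.65 and 136 CPM against 62.1, 47.9, 104, 91.9 and 121 CPM. For Ccnb1 the myenteric libraries were at 0 in 4 of 5 and at 21.5 CPM in replicate 5, which was above the 7.03 to 21.4 CPM of the submucosal plexus. Birc5 (60.2 CPM), Mcm2 (34.1 CPM) and Rrm2 (23.6 CPM) of replicate 5 lay within the submucosal ranges of 9.87 to 62.9, 17.1 to 62.9 and 18.8 to 54.9 CPM. No member was without overlap between the layers of the colon, where 5.46% of all genes tested were higher without overlap.

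Without myenteric replicate 5, 9 of 10 members were called higher in the colonic submucosal plexus, in a fit in which 28.3% of all genes tested were called. Top2a had a log2 fold change of 5.62, Rrm2 of 4.70, Birc5 of 4.33, Mcm5 of 4.29, Cdk1 of 4.20, Ccna2 of 3.54, Mcm2 of 2.76 and Pcna of 1.08. Ccnb1 was at 0 in the remaining 4 myenteric libraries and at least 24.7-fold higher in the submucosal plexus. Mki67 was the member not called (2.18 ± 0.93, adjusted p = 0.0846), with 9.07 and 8.51 CPM in myenteric replicates 2 and 4. The plot of plexus fold changes sets the small intestine, the colon and the colon without replicate 5 side by side.

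**Figure D2:**
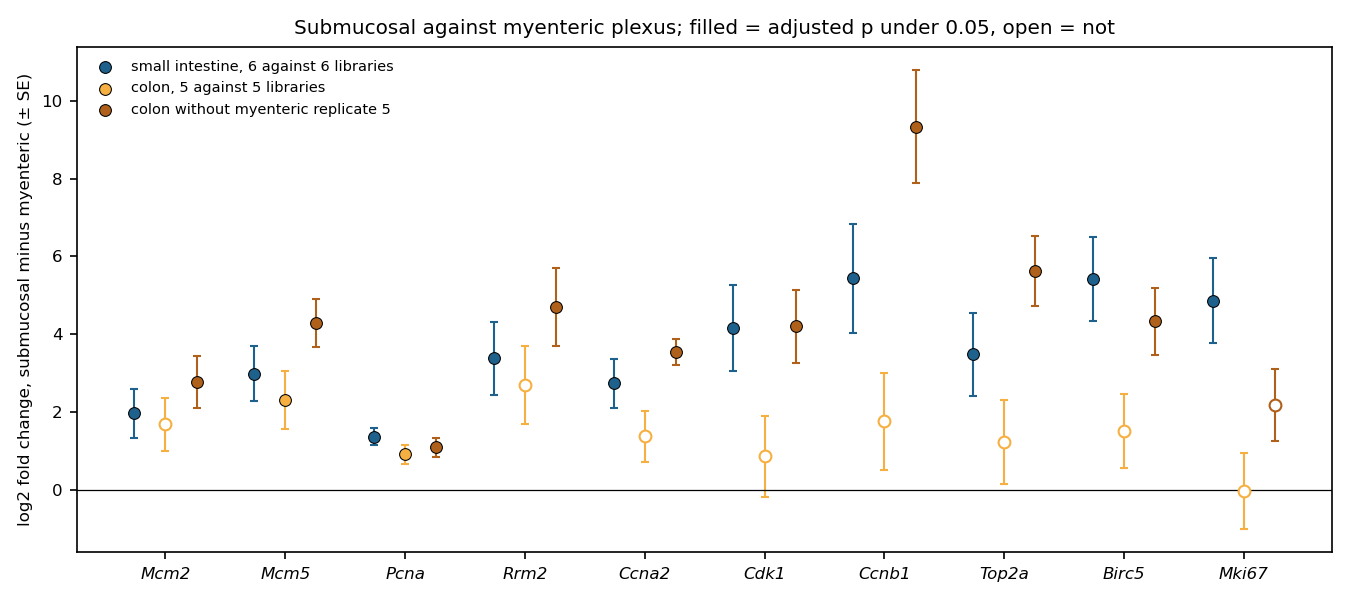
Log2 fold change of submucosal over myenteric plexus (y axis, with its standard error) for each of the 10 genes on the x axis, in the small intestine, the colon and the colon without myenteric replicate 5; filled points were called at an adjusted p under 0.05 and open points were not. Called genes number 10, 2 and 9, and the value of Ccnb1 without replicate 5 is a fitted value against libraries at 0 and no bound.

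Replicate 5 of the colonic myenteric plexus had 2650 CPM of epithelial markers, whereas its B cell and T cell markers were near the floor (0.525 and 1.40 CPM summed). Its 6 members of G2 and mitosis summed to 557 CPM, against 9.75 to 29.9 CPM in the other 4 libraries of the group. Its glial markers summed to 1120 CPM, within the range of the other 4 (947 to 1965 CPM). Among the submucosal libraries of the colon, replicate 2 had the most epithelial markers (8130 CPM), few B cell (6.84 CPM) and T cell (0.380 CPM) markers, and the most glial ones (696 CPM). It also had the lowest sums of the G2 and mitosis members (134 CPM, others up to 378 CPM) and of the S phase members (103 CPM, others up to 226 CPM) of its group. With the epithelial and lymphocyte markers as covariates, 0 of 10 members were called in the colon, 7 of 10 estimates were below 0 (Mki67 lowest at -3.92 ± 1.47), and 7 of 14090 genes (0.0497%) were called. In the colon 5 of 5 B cell, 5 of 5 T cell, 5 of 5 plasma cell and 5 of 6 macrophage markers were called higher in the submucosal plexus, and 1 of 7 epithelial markers was. The part of these cells in the members' levels was not tested.

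Of 28 other S phase genes, 7 rose in the colonic submucosal plexus and 0 fell (median 1.20), where 10.7% of all genes were called as higher. The largest were Uhrf1, which maintains DNA methylation at replication (2.74 ± 0.97, a call kept in 1 of 10 leave-one-out fits), Fen1, a flap nuclease (1.77 ± 0.49), and Mcm3, a helicase subunit (1.76 ± 0.38). Of 35 other genes of G2 and mitosis, Mybl2 rose, at least 4.19-fold, and Anln fell (-1.87 ± 0.45), with a median of 1.18. Without myenteric replicate 5 these counts were 17 of 28, and 22 higher and 1 lower of 35, in a fit that called 28.3% of all genes. In G1, Myc (2.50 ± 0.39), Cdk2 (0.85 ± 0.30) and Cdk4 (0.52 ± 0.17) rose, and Ccnd2 (-1.22 ± 0.21), Ccnd1 (-1.08 ± 0.22) and Ccnd3 (-1.04 ± 0.25) fell. The calls of Cdk2 and Cdk4 were kept in 1 and 4 of the 10 leave-one-out fits. Of 15 inhibitors, Btg2 rose (1.10 ± 0.35, kept in 5 of 10 such fits) and none fell. Without myenteric replicate 5, 1 of the 15 rose and 2 fell.

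Regions were then compared within each layer. In the myenteric plexus 1 of 10, Mki67, was called higher in the colon than in the small intestine (4.07 ± 1.08, adjusted p = 0.0421), where 3.19% of all genes tested were called, 1.66% as higher. The call was lost without colonic replicate 5 (1.85 ± 0.91, adjusted p = 0.328), and also without small intestinal replicate 1, 3, 4, 5 or 6, where the estimate stayed between 3.78 and 4.04. Sex as a covariate (3.94) or only the compared groups in the fit (4.06) also lost it. Birc5 (3.72 ± 1.04, adjusted p = 0.0516), Cdk1 (3.46 ± 1.11, adjusted p = 0.0887) and Ccnb1 (3.46 ± 1.35, adjusted p = 0.176) missed the threshold. Without colonic replicate 5 these were 0.91, 0.12 and -4.13, the last a fitted value with the other 4 colonic libraries at 0. DESeq2, which called 7% of all genes with replicate 5 included, called Birc5 and Cdk1 and gave Mki67 no adjusted p. Of the 35 other genes of G2 and mitosis, 4 were called higher in the colonic myenteric plexus, among them Plk1 (at least 22.4-fold), Ccnb2 (at least 16.7-fold) and Ttk (at least 2.95-fold), with calls kept in 10, 6 and 3 of 11 leave-one-out fits. Without replicate 5 none of the 35 was called (2.13% of all genes called), and the fitted value of Ccnb2 was -1.88. In the submucosal plexus 0 of 10 members were called between regions (5.18% of all genes), and 1 had an unadjusted p under 0.05 in edgeR (17.7% of all genes did). That was Pcna, at -0.49 ± 0.23 for colon over small intestine (adjusted p = 0.273). In the submucosal plexus Ccnd1 was higher in the colon (1.38 ± 0.21, adjusted p = 0.000658).

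The difference between the layers was tested between the regions directly. A difference between colon and small intestine was called for 0 of 10 members (1.19% of all genes called), with 3 unadjusted p-values under 0.05 (14.7% of all genes). The nearest was Mki67, whose plexus difference was 4.90 ± 1.45 lower in the colon on the log2 scale (adjusted p = 0.0985). It was called without small intestinal myenteric replicate 2 (-6.40, adjusted p = 0.0325) and without colonic myenteric replicate 3 (-5.23). The estimates were below 0 for 10 of 10 members (median -1.81), and without myenteric replicate 5 of the colon their median was 0.80, with 0 called (1.11% of all genes).

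Across the 22 untreated libraries the members varied together. Pearson's r between pairs of members, on log2 CPM, had a median of 0.87 for the 15 pairs within G2 and mitosis, 0.86 for the 6 pairs within S phase and 0.77 for the 24 pairs of 1 gene from each set. With group means subtracted these medians were 0.67, 0.57 and 0.44. These are descriptions over libraries that share an experiment. The genes outside the set whose pattern was most like the mean of the members, over the same 22 libraries, were E2f8, an E2F-family repressor made in S phase (r = 0.98), Ccnb2 (0.98) and Pclaf, a PCNA-binding protein (0.97). They were followed by Rpsa (0.96), a ribosomal protein, Cdca8 (0.96), a partner of Birc5, Mcoln2 (0.96), Cks2 (0.96), Hist1h2ae (0.96), Sapcd2 (0.96) and Tjp3 (0.95), a tight junction protein. After subtraction of group means E2f8 (0.94) and Ccnb2 (0.94) still led, followed by Sapcd2 (0.92) and Ckap2l (0.90).

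The plot of members against epithelial markers covers all 3 experiments. In the 60 myenteric libraries with under 2000 CPM of epithelial markers, the 6 members of G2 and mitosis summed to 7.27 to 96.3 CPM (median 20.2) and the 4 of S phase to 18.8 to 94.0 CPM (median 57.3). Of the 4 libraries above that level, 3 exceeded both ranges, with 557, 305 and 240 CPM for G2 and mitosis and 140, 233 and 130 CPM for S phase. Wild type LPS replicate 5 at 24 h, which had the most epithelial markers (9798 CPM), had 78.3 CPM for G2 and mitosis, within the range, and 97.5 CPM for S phase, just above it. These 3 libraries did not share lymphocyte markers: B cell markers summed to 0.525 CPM in the untreated replicate 5, to 87.0 CPM in the wild type LPS replicate 3 and to 0.137 CPM in the knockout PBS replicate 4.

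**Figure D3:**
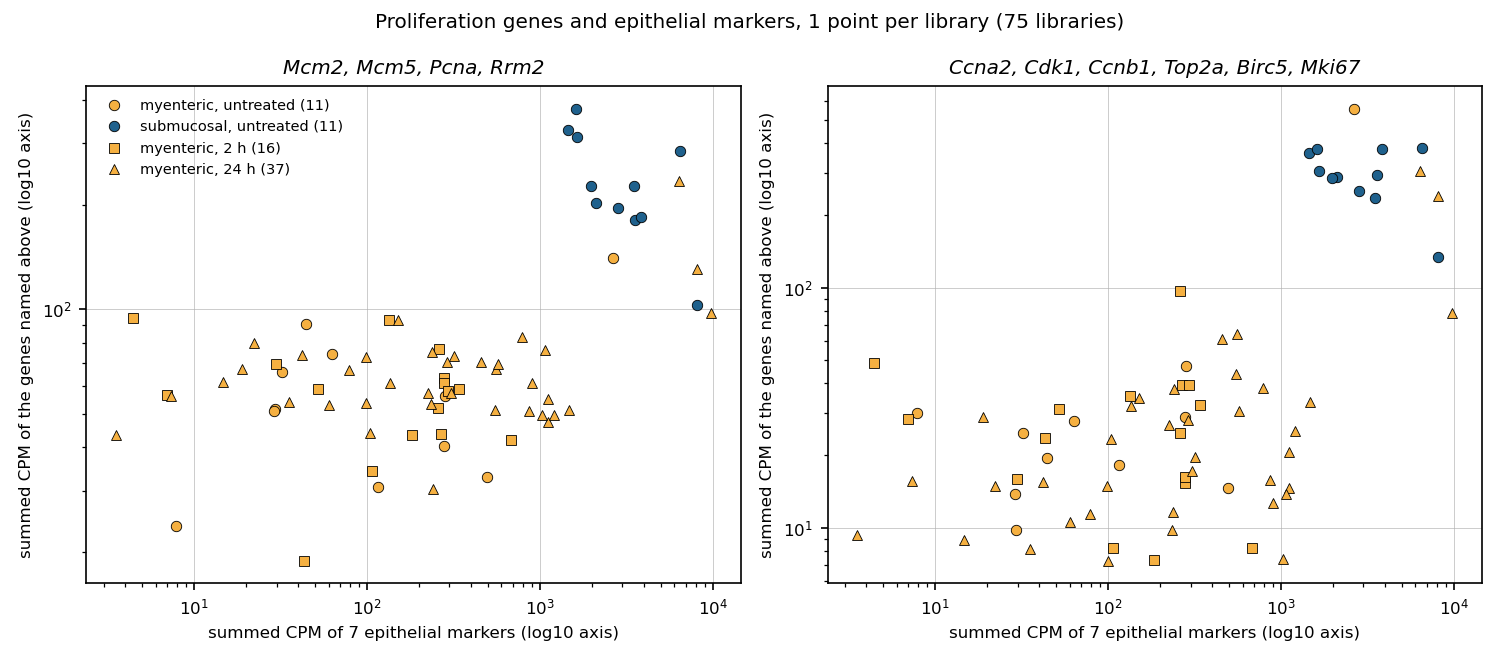
Summed CPM of the 4 S phase members (left) and of the 6 members of G2 and mitosis (right) on the y axis against the summed CPM of 7 epithelial markers on the x axis, both log10, 1 point per library for the 75 libraries, by layer. Most myenteric points lie low on the y axis, and 3 of the 4 myenteric points beyond 2000 CPM of epithelial markers lie among or near the submucosal points.

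At 2 h after LPS no proliferation gene was called in the myenteric plexus of either region. The counts were 0 of 10 in the small intestine (1.1% of the 13107 genes tested were called) and 0 of 10 in the colon (0.778%), with 0 and 2 members at an unadjusted p under 0.05 in edgeR (5.2% and 7.53% of all genes), and DESeq2 also called 0. The members' log2 fold changes had a median of 0.02 in the first region and of -0.38 in the second, which over all genes tested was -0.02 and -0.002. The difference between regions in the LPS response was called for 0 of 10 members and for 0 of 13107 genes (0%), of which 452 (3.45%) had an unadjusted p under 0.05 in edgeR, no member among them, and 44 were called by DESeq2.

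Pcna was the member with groups that did not overlap at 2 h. In the colon it had 37.5, 29.6, 41.7 and 36.3 CPM after PBS and 25.9, 8.02, 28.8 and 12.8 CPM after LPS, so the 4 LPS libraries lay below the 4 PBS libraries, the closest pair being 29.6 and 28.8 CPM. Its log2 fold change of -0.95 ± 0.42 (adjusted p = 0.599) did not pass, and 1.6% of all genes were lower without overlap. In the small intestine Pcna had 45.3, 36.1, 36.1 and 31.5 CPM after PBS and 25.0, 23.3, 32.2 and 27.1 CPM after LPS, with 1 LPS library within the PBS range (-0.47 ± 0.41, adjusted p = 1). Cdk1 in the colon had 0 to 31.9 CPM after PBS and 0 to 0.411 CPM after LPS, the latter all under the floor, and its adjusted p was 0.553.

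Of the 96 values of the 6 mitotic members in the 16 libraries at 2 h, 44 were at 3 counts or fewer, from 0 of 16 for Ccna2 to 11 of 16 for Ccnb1. Mki67 had 0, 0.340, 2.00 and 3.45 CPM in the colon after PBS and 16.9, 1.60, 1.64 and 0.277 CPM after LPS, and in the small intestine 0, 0, 0 and 1.56 CPM after PBS and 3.41, 0, 16.1 and 0 CPM after LPS. In each region 1 LPS library was above 10 CPM and the other 3 were not. Standard errors of the members' log2 fold changes other than Pcna and Ccna2 were 1.41 to 2.26, so a 4-fold change lies within 2 standard errors and was not detectable in these libraries. Mcm5 in the colon had 11.4, 0, 6.00 and 0.919 CPM after PBS and 20.1, 1.20, 18.5 and 22.2 CPM after LPS (1.75 ± 1.86, adjusted p = 1).

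Among the other cell cycle genes, Myc, Btg2 and Cdkn1a rose 2 h after LPS. Of 10 G1 cyclins and kinases 1 rose in each region, and it was Myc, from an average of 13.1 to 162 CPM in the small intestine (3.65 ± 0.69, adjusted p = 0.00858) and from 4.24 to 130 CPM in the colon (4.90 ± 0.74, adjusted p = 0.0022). Of 15 inhibitors 2 rose in each region. Btg2, an anti-proliferative immediate-early gene, had a log2 fold change of 2.45 ± 0.30 in the small intestine, where its mean went from 113 to 620 CPM, and of 1.62 ± 0.29 in the colon, from 195 to 602 CPM. Those of Cdkn1a were 1.98 ± 0.28 and 1.24 ± 0.27, and its call in the colon was kept in 1 of 8 leave-one-out fits. None of the 25 other S phase genes and none of the 25 other genes of G2 and mitosis that passed the filter was called in either region.

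At 24 h after LPS, again, 0 of 10 members were called in each of the 4 comparisons of LPS with PBS. The share of all 14903 genes tested that were called was 7.17% in the wild type small intestine, 7.96% in the wild type colon, 0.718% in the knockout small intestine and 0.718% in the knockout colon. Unadjusted p-values under 0.05 numbered 1, 3, 0 and 0 of the 10 members in edgeR, where 21.7%, 24.8%, 11.5% and 12.4% of all genes had one. DESeq2 called 0, 2, 0 and 0, the 2 being Mki67 and Pcna, in a comparison where it called 15.1% of all genes. The members' median log2 fold change was 0.02, 1.11, 0.60 and -0.72 in the same order. Without the epithelium-rich libraries the median of the knockout colon was 0.33, with 0 of 10 called (1.03% of all genes).

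Pcna came closest to the threshold, in the wild type colon. It had 35.3, 34.7, 31.6 and 40.3 CPM after PBS and 47.7, 46.1, 101, 52.1 and 39.5 CPM after LPS, so that 4 of 5 LPS libraries lay above the PBS range and replicate 5 within it. The log2 fold change was 0.69 ± 0.24 (adjusted p = 0.0644 in edgeR, 0.0171 in DESeq2), and over the 17 alternatives it ran from 0.39 to 0.80 with adjusted p-values from 0.0171 to 0.291. Without replicate 3 it was 0.39 (adjusted p = 0.291), and without replicate 5 it was called (0.80, adjusted p = 0.0428). Without both of those epithelium-rich libraries and the knockout PBS one, it was 0.45 ± 0.22 (adjusted p = 0.256). In the wild type small intestine Pcna had 30.4, 27.5, 28.1, 25.9, 27.7 and 35.5 CPM after PBS and 30.3, 53.2, 36.0 and 50.5 CPM after LPS (0.54 ± 0.23, adjusted p = 0.146).

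Among the LPS libraries of the wild type colon all 10 members were highest in the epithelium-rich replicate 3. Mki67 had 0, 1.70, 0.0351 and 0.289 CPM after PBS and 0.728, 1.68, 82.3, 2.27 and 20.5 CPM after LPS (5.41 ± 2.36, adjusted p = 0.144 in edgeR, 0.0450 in DESeq2). Without the epithelium-rich libraries its log2 fold change was 1.63 ± 2.25 (adjusted p = 0.754). Ccna2 had 6.18, 12.3, 7.06 and 10.0 CPM after PBS and 11.6, 12.0, 42.0, 17.3 and 14.4 CPM after LPS (1.13 ± 0.54, adjusted p = 0.185). The median of the 10 members was 1.11 with all libraries and -0.55 without the epithelium-rich ones, when 0 of 10 were called (4.78% of 15090 genes). Mouse number and mitochondrial share were uneven in this comparison. LPS replicates 3, 4 and 5 came from mice 3, 5 and 8, with 10.9, 14.2 and 9.05% mitochondrial counts, and the other LPS replicates from mice 13 and 16, with 4.88 and 7.30%. The PBS mice were numbered 14, 19, 22 and 24 and had 2.97 to 10.4%. With mice numbered 11 and above only, the log2 fold change was 1.36 ± 2.50 for Mki67, 0.44 ± 0.52 for Ccna2 and 0.43 ± 0.22 for Pcna (adjusted p = 0.783, 0.640 and 0.236 in edgeR).

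In the small intestine Mcm5 was the member whose groups did not overlap at 24 h. In the knockout it had 8.32, 4.82, 7.03 and 5.16 CPM after PBS and 20.4, 13.0, 25.4, 13.5 and 14.1 CPM after LPS (1.44 ± 0.82, adjusted p = 0.534), where 3.09% of all genes were higher without overlap. The test did not call it. In the wild type it had 5.97, 8.62, 14.1, 7.68, 12.4 and 10.0 CPM after PBS and 0, 11.5, 12.9 and 11.1 CPM after LPS (-0.14 ± 0.76, adjusted p = 0.952), with replicate 1 at 0. The plot of LPS libraries shows Pcna, Mcm5, Ccna2 and Mki67 in the 12 myenteric groups at 2 h and 24 h.

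**Figure D4:**
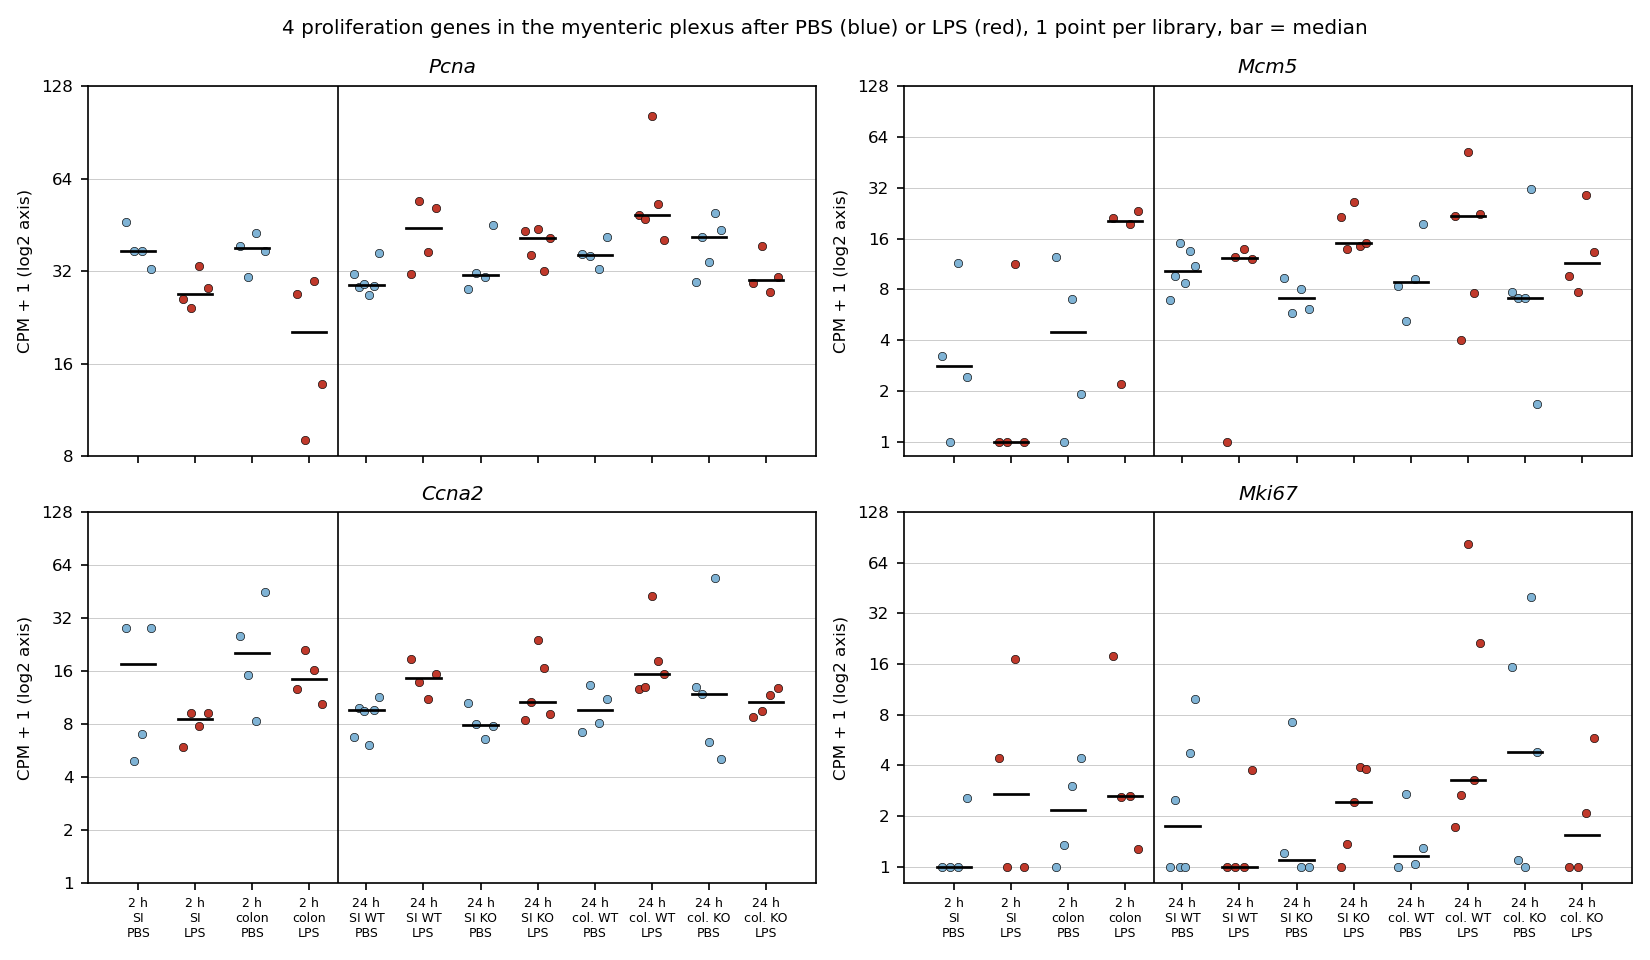
CPM + 1 on a log2 axis of Pcna, Mcm5, Ccna2 and Mki67 (1 panel each) in the 12 PBS (blue) and LPS (red) groups of the myenteric plexus, with the groups on the x axis, 1 point per library and a bar at the median. Pcna lies between 8.02 and 101 CPM, and for Mki67 many points are at or near 0 and the highest, 82.3 CPM, is wild type colon LPS replicate 3.

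Beside the members, a few cell cycle genes changed at 24 h. The D-type cyclin Ccnd2 fell after LPS in all 4 comparisons, with log2 fold changes of -1.24 ± 0.19 (small intestine) and -1.22 ± 0.19 (colon) in the wild type and of -0.99 ± 0.19 and -1.04 ± 0.20 in the knockout. Ccnd3 fell in the wild type (-0.96 ± 0.25 and -1.24 ± 0.25), with calls kept in 8 of 10 and 9 of 9 leave-one-out fits. Cdkn1a rose in the wild type (1.53 ± 0.28 in the small intestine, 1.79 ± 0.32 in the colon) and Cdkn1c fell in the wild type colon (-2.40 ± 0.66), a call kept in 7 of 9 leave-one-out fits and lost without the epithelium-rich libraries (-1.84 ± 0.66, adjusted p = 0.105). Of 28 other S phase genes, Fen1 rose in the wild type small intestine (1.67 ± 0.43, adjusted p = 0.0133), a call lost without LPS replicate 2. In the wild type colon Fen1 (1.52 ± 0.47) and Mcm10 (at least 16.6-fold higher) rose, with calls kept in 2 and 3 of 9 leave-one-out fits. Without the epithelium-rich libraries none of the 28 was called. Fen1 then had a log2 fold change of 1.11 ± 0.49, and the fitted value of Mcm10 was -5.1e-15, no rise. Of 34 other genes of G2 and mitosis tested, none was called in any of the 4 comparisons.

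Genotype was compared within each treatment and region at 24 h. After PBS 0 of 10 members were called in the small intestine or the colon, and 0 of 14903 genes (0%) were in either. Unadjusted p-values under 0.05 numbered 256 (1.72%) and 629 (4.22%) genes in edgeR, none of them a member, and DESeq2 called 58 and 74 genes with no member among them. Pcna had 26.9, 30.6, 29.6 and 44.0 CPM in the knockout small intestine and 28.6, 40.2, 33.1, 48.4 and 42.6 CPM in the knockout colon after PBS, overlapping the wild type values given above. In the knockout colon after PBS, replicate 4, the library with 8120 CPM of epithelial markers, had the highest Mki67 (38.9 CPM, others 0 to 14.3), Ccna2 (52.9 CPM, others 4.06 to 11.9) and Mcm5 (30.5 CPM, others 0.676 to 6.75).

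After LPS 0 of 10 members were called between genotypes, in the small intestine (0.0134% of all genes called) or the colon (0.429%), with 0 and 1 at an unadjusted p under 0.05 in edgeR (7.63% and 16.4% of all genes). In the colon Pcna had 28.4, 37.5, 26.3 and 29.5 CPM in the knockout and 47.7, 46.1, 101, 52.1 and 39.5 CPM in the wild type, with no overlap, where 1.17% of all genes were lower without overlap. Its log2 fold change was -0.91 ± 0.24 (adjusted p = 0.071 in edgeR), and DESeq2, which called 4.82% of all genes, called it (-0.97 ± 0.24, adjusted p = 0.00494). Over the 17 alternatives it ran from -1.03 to -0.58, with adjusted p-values from 0.00494 to 0.763, and it was called without wild type LPS replicate 2. Without wild type LPS replicates 3 and 5 and the knockout PBS replicate 4 it was -0.68 (adjusted p = 0.194). In the small intestine after LPS Mcm5 had 20.4, 13.0, 25.4, 13.5 and 14.1 CPM in the knockout and 0, 11.5, 12.9 and 11.1 CPM in the wild type, again without overlap (1.23% of all genes), and was not called (0.95 ± 0.80, adjusted p = 0.882). These comparisons share the LPS libraries with those of LPS against PBS.

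The response to LPS was tested between genotypes as an interaction. A difference was called for 0 of 10 members in the small intestine or the colon, and 0 of 14903 genes (0%) were called in either, with 578 (3.88%) and 2009 (13.5%) genes at an unadjusted p under 0.05 in edgeR. In the colon the 3 members among those 2009 were Pcna (-1.04 ± 0.34, adjusted p = 0.19 in edgeR, 0.048 in DESeq2), Mki67 (-8.35 ± 3.13, adjusted p = 0.243) and Ccna2 (-1.94 ± 0.76, adjusted p = 0.258). Estimates for the colon were below 0 for 10 of 10 members (median -1.88), and the median without the epithelium-rich libraries was 1.33. The standard error of Pcna in the 4 comparisons of LPS with PBS at 24 h was 0.23 to 0.24, and those of Mki67, Top2a, Ccnb1, Cdk1, Birc5 and Rrm2 were 1.39 to 2.48.

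Over the 37 libraries at 24 h the genes most like the mean of the members were Spc24 (r = 0.84) and Cenpe (0.80), both of the kinetochore, Cdca3 (0.83), Ccnb2 (0.78), Ube2c (0.78), a ubiquitin-conjugating enzyme of mitotic exit, and Cdkn3 (0.78). Hoxb13 (0.78), a gene of the distal colon, and Ern2 (0.77), a stress sensor of mucosal epithelium, were also among the first 10. Over the 16 libraries at 2 h the most alike was Rhoa (0.82), followed by Vav3 (0.79), and no gene of the 2 cell cycle lists was among the first 10. Pairs of members had a median r of 0.55 within G2 and mitosis at 24 h and of 0.23 at 2 h.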

How the data were processed

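Libraries were made with Smart-seq2, which carries no molecular identifiers, from RNA isolated with a micro-scale column kit, per the labels' protocols. Unnormalized counts by gene symbol were deposited by the authors in 2 tables, per the file headers and the whole-number values. Trim Galore 0.4.4, STAR 2.5.3, DESeq2 and GRCm38 are named in the submitters' processing notes; the counter, the annotation and the use of strand are not given in the sources used here. All per-sample columns were used.

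Each experiment was fitted on its own in edgeR 4.0.16 (R 4.3.3) with filterByExpr, TMM factors and glmQLFit and glmQLFTest over all its groups, which left 14090, 13107 and 14903 genes. Tests are two-sided, 18 contrasts in all, with Benjamini-Hochberg adjustment over all genes tested. The standard error is the log2 fold change divided by the root of its F statistic. Levels are CPM on the TMM scale, and correlations used log2 CPM with a prior count of 2. A fold against a group with 3 counts or fewer in every library was computed against 3 counts per library and is a lower bound, and all other folds are fitted values. The fitting script was tested on simulated data with known changes. No 2 libraries of a group were identical. The file headers of the untreated libraries give the sex and a number within it, but do not say whether that number stands for an animal. It is therefore not known which libraries of one sex share an animal, within a group or across layers and regions. Those comparisons were fitted as unpaired, and p-values measure the spread between these libraries, which may be in part technical.

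All members were described. Of the 4 cell cycle lists the counts called, the median and up to 3 called genes per direction with the largest change are named, and of the genes most alike up to 10 per experiment, by Pearson's r with the members' mean, predicted genes left out. The members and lists were chosen with earlier results of these data known, and 1 glial marker is not reported here. Positions are from the GENCODE annotation of GRCm38, promoters from RefSeq (GRCm38.p6), and figures were drawn with matplotlib 3.10.9 in Python 3.11.15. Alternatives were RLE factors, no filter, and sex, the replicate block or marker means as covariates. Others were a division by mouse number, only the compared groups, DESeq2 1.42.0 and leaving out each library. The replicate block was the sex and number in the file header, which in some groups differ from the replicate named here.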

Additional observations from a re-analysis of the deposited data

Results flagged for a closer look

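Within each group of 4 to 6 libraries, a library far from the others by Dixon's 95% criterion was found in 48 of 160 combinations of member and group. Chance gives about 1 in 20 for normally distributed values, but a group at 0 with 1 library above it meets the criterion by construction, so no excess is read from this count. In 46 of the 48 it was the highest library, and 22 of the 48 lay in 3 colonic myenteric libraries that were also rich in epithelial markers. Untreated replicate 5 stood apart for Mki67 (96.0 CPM), Top2a (119), Ccnb1 (21.5), Ccna2 (136), Cdk1 (124), Mcm5 (40.3), Birc5 (60.2) and Rrm2 (23.6). Wild type LPS replicate 3 at 24 h did so for Mki67 (82.3 CPM), Ccnb1 (7.55), Ccna2 (42.0), Cdk1 (29.7), Pcna (101), Birc5 (59.7) and Rrm2 (35.4). Knockout PBS replicate 4 at 24 h did so for Top2a (38.3 CPM), Ccnb1 (16.5), Ccna2 (52.9), Cdk1 (52.6), Mcm5 (30.5), Birc5 (40.7) and Rrm2 (17.5). In these libraries several members stand apart together.

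The others were mostly values of a few CPM above a group near 0. In the untreated small intestinal myenteric plexus they were replicate 2 for Mki67 (6.37 CPM) and Cdk1 (9.56) and replicate 3 for Ccnb1 (1.82). At 2 h in the small intestine they were PBS replicate 4 for Mki67 (1.56 CPM), PBS replicate 3 for Ccnb1 (2.61), PBS replicate 2 for Mcm2 (the lowest, 0), and LPS replicate 3 for Ccnb1 (1.56), Cdk1 (3.25) and Mcm5 (10.3). At 2 h in the colon they were PBS replicate 4 for Ccnb1 (8.04 CPM), PBS replicate 3 for Birc5 (3.33), LPS replicate 1 for Mki67 (16.9) and LPS replicate 4 for Rrm2 (16.9). At 24 h in the wild type small intestine they were LPS replicate 4 for Mki67 (2.77 CPM), Cdk1 (4.07) and Rrm2 (10.9), LPS replicate 1 for Ccnb1 (12.8) and for Mcm5 (the lowest, 0), and PBS replicate 6 for Ccnb1 (3.84). At 24 h they were also wild type colon PBS replicate 2 for Mki67 (1.70 CPM) and replicate 4 for Birc5 (17.3), knockout small intestine PBS replicate 2 for Mki67 (6.26) and Birc5 (3.81), knockout small intestine LPS replicate 4 for Ccnb1 (4.49), and knockout colon LPS replicate 4 for Top2a (14.5) and Ccnb1 (1.93).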

How the results depend on the processing

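Of the counts of members called, that of the small intestinal plexus comparison (10) was 0 with marker means as covariates and 9 or 10 otherwise, DESeq2 giving Mki67 no adjusted p. In the colon (2) it was 4 with DESeq2, 5 with the replicate block, 0 with marker covariates, 0 with only the compared groups, 9 without the epithelium-rich library, and 1 to 9 leaving out each library. For colon against small intestine in the myenteric plexus (1) it was 2 with DESeq2, 0 with sex as a covariate, with the replicate block, with only the compared groups or without the epithelium-rich library, and 0 to 3 leaving out each library. It was 0 to 1 leaving out each library for the plexus by region interaction, for LPS at 24 h in the wild type small intestine (Rrm2, without LPS replicate 4) and colon, and for genotype after LPS in the colon; DESeq2 called 2 in that wild type colon, 1 for genotype after LPS there and 1 for its interaction. The share of all genes called is given with the colon plexus results above for DESeq2, marker covariates and the epithelium-rich library. It is not given for the colon replicate block or for leaving out each library, so those counts are not set against it. The exclusion of epithelium-rich libraries was chosen after seeing the data, and the cause of these shifts in counts was not tested.

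With marker covariates these small intestinal plexus values changed sign: Mki67 -0.38, Top2a -3.14, Ccnb1 -3.27, Ccna2 -0.95, Cdk1 -1.54, Mcm2 -1.08, Mcm5 -0.53, Birc5 -0.75, Rrm2 -0.19, Mcm10 -1.01, Tk1 -0.27, Ccnb2 -1.40, Bub1 -2.39, Rbl1 -0.12 and Btg2 -0.39, as did Btg2 in the colon (-0.29) and 6 colonic members called in neither fit: Top2a -2.26, Ccnb1 -2.14, Ccna2 -0.70, Cdk1 -2.98, Mcm2 -0.30 and Birc5 -2.26. Ccnb2 in the myenteric plexus, colon over small intestine, was -1.88 without replicate 5 of the colon, the epithelium-rich library, and up to 8.76 leaving out any other library. Of the other gene values under all alternatives, 4038 kept their side of the threshold, of which 254, called in neither setting, changed sign, 146 lost and 36 gained a call; 8 pairs of member and comparison had no adjusted p in DESeq2. Over all genes, DESeq2 called more than 1.5 times as many genes for the myenteric regions (987 against 449), the plexus by region interaction (577 against 168), LPS at 2 h (261 against 144, 277 against 102, interaction 44 against 0), LPS at 24 h (1875 against 1069, 2255 against 1186, 527 against 107, 474 against 107), genotype (58 and 74 against 0, 182 against 2, 719 against 64) and the genotype interactions (59 and 340 against 0). With only the compared groups the counts were 1902 against 3069 (colon plexus), 63 against 102, 1704 against 1069, 412 against 1186, 47 and 7 against 107, and 0 against 2 and 64; with mice numbered 11 and above 23 and 334 against 2 and 64, and 25 against 0 for the colon interaction; with the replicate block 246 against 449; and for genotype after LPS in the colon 14 without the filter and 40 with the mouse covariate against 64. Same-numbered libraries correlated weakly in their deviations from group means (mean r 0.02 to 0.18 over 6 comparisons, against -0.03 to -0.004 for other numbers), and in no comparison was every pair above 0.1, so the number was not taken as a pairing. Every library correlated best with its own number for LPS at 2 h in the colon (8 of 8), and 6 of 8 did in the small intestine. Between regions 9 of 10 did in the myenteric and 6 of 10 in the submucosal plexus. Between layers 4 of 12 did in the small intestine and 2 of 8 in the colon. At 24 h the groups compared shared no mouse, so no paired analysis was possible there. For the untreated and 2 h libraries the number entered only as the replicate block. Depth limits the mitotic genes in the myenteric plexus, many of which lie at or under 3 counts.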
